A study of Mus musculus with 12 samples.

Results

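A set of 9 genes that mark B lymphocytes was followed in RNASeq libraries made from T cells of the mouse spleen. The 9 genes were Cd79a, Cd79b, Ms4a1, Pax5, Ebf1, Blk, Cr2, Fcer2a and Cd22, taken by matching the gene identifiers of the deposited count table to these symbols in the GRCm38 annotation. They are 9 of the 49315 genes in the table, of which 30192 had a count in at least 1 library. The libraries came from wild-type (WT) mice and from mice that lack miR-214 in the whole body (miR-214-/-), 12-week-old males that were implanted with osmotic minipumps, which delivered buffer (sham) or angiotensin II (Ang II) at a daily 490 ng/kg over 14 days. Each of the 4 groups, WT sham, WT Ang II, miR-214-/- sham and miR-214-/- Ang II, had 3 libraries. T cells were enriched by magnetic negative selection, in which antibodies pull other cells out and the untouched cells are kept, so that the libraries hold whatever the depletion left behind. The strain of these mice was not in the sample labels.

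B cells are the lymphocytes that make antibody. Their antigen receptor is a membrane immunoglobulin coupled to the signalling chains CD79a and CD79b, and the transcription factors EBF1 and PAX5 commit a progenitor to the B lineage and keep it there. CD20 (Ms4a1), CD21 and CD35 (both encoded by Cr2), CD23 (Fcer2a) and CD22 sit on the surface of mature B cells, and BLK is a Src family kinase of the receptor pathway. The spleen holds follicular and marginal zone B cells, and when a B cell becomes a plasma cell it shuts down PAX5 and most of these surface genes while it secretes antibody. A conventional T cell lacks most of the 9 products. BLK is an exception, since some T cells that make interleukin 17 use it.

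Short control sequences are shown for Cd22 and Cd79a because they hold letters that B lineage factors are known to bind. The windows are RefSeq promoters (GRCm38.p6) that run from 250 bases before to 50 bases after an annotated start, written 5′ to 3′ on the strand of the gene. In Cd22 (chr7:30878979-30879278, minus strand) the capitals mark the palindrome of early B cell factor, and in Cd79a (chr7:24897247-24897546, plus strand) they mark an E-box followed by a PU.1 box read on the other strand.
Cd22: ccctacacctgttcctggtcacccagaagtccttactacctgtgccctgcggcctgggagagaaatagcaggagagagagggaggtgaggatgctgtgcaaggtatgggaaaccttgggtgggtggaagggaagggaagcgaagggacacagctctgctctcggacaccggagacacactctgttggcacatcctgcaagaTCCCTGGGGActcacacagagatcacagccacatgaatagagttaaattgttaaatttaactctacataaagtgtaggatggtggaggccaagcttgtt
Cd79a: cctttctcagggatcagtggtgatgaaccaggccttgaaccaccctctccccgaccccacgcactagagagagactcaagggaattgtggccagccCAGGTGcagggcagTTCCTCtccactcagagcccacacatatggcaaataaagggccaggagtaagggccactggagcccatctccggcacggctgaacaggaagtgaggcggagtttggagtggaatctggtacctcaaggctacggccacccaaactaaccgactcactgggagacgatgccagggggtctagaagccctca

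The reference table held 9 windows for 6 of the 9 genes (Pax5, Ebf1, Cd79a, Cr2, Fcer2a and Cd22), and none for Cd79b, Ms4a1 and Blk. Both strands were searched for 8 motifs. The core CCCNNGGG of the EBF palindrome was in the Cd22 window and in 13.7% of all 32851 windows, and its longer form TCCCNNGGGA, which contains the core, was in the Cd22 window, from base 202, and in 0.904% of all windows. The E-box CAGGTG was in windows of Cd22, Cd79a, Cr2 and Fcer2a and in 20.2% of all windows. The PU.1 box GAGGAA was in windows of Cd79a and Ebf1 and in 28.3% of all. The octamer ATTTGCAT, bound by OCT factors at immunoglobulin promoters, was in 0 of the 9 windows and in 1.74% of all. Among general promoter letters, TATAAA was in 1 Fcer2a window and in 13.6% of all, while CCGGAA (14.9% of all) and GGGGCGGGG (11.4% of all) were in 0 of the 9 windows. A match describes letters in a window and is not evidence of binding. The search took exact strings only, so a window without a match can still hold a site spelled otherwise.

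Total counts per library ranged from 21126874 to 29605988. Defining T cell genes were high in every library: the summed level of 12 of them, among them Cd3e, Trac, Lck and Cd8b1, lay between 3600 and 6228 CPM (counts scaled to a common library total with edgeR's TMM factors). The row of Mir214 had 0 counts in all 12 libraries, so the counts do not check the genotype. Of 12 pairs of libraries within a group, 0 were identical, and the lowest chi-square per degree of freedom was 10.3, so none of these pairs agreed within sampling noise.

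All 9 B cell genes were detected in each of the 12 T cell libraries, at a low level. The smallest count of any of them in any library was 36 (Ebf1) and the largest 2410 (Cd79a). The sum of the 9 was 1.03% to 8.46% of the sum of the 12 T cell genes in the same library, with a median of 2.20%. In bulk RNA, fewer cells of a type and less RNA per cell cannot be told apart.

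Per kb of exon, the antigen receptor chains stood above the rest. The mean level over the 12 libraries was 20.7 ± 15.9 CPM per kb (SD, n = 12) for Cd79a and 17.4 ± 11.3 CPM per kb for Cd79b, and 83.9% and 80.8% of the 16770 genes tested over all groups lay below them. Cd22 (3.67 ± 3.10 CPM per kb), Ms4a1 (3.48 ± 3.47 CPM per kb) and Blk (3.38 ± 2.08 CPM per kb) came next, and were closer to each other than their spread over libraries. Pax5 (2.38 ± 2.40 CPM per kb), Cr2 (2.04 ± 2.01 CPM per kb) and Fcer2a (1.88 ± 2.02 CPM per kb) likewise lay closer to each other than their SD. The SD includes variation from library to library that the genes share, so it does not test whether genes differ in level. Ebf1 was lowest at 0.534 ± 0.501 CPM per kb, above 17.8% of the genes tested. The SD over libraries was a large part of the mean for all of them, least so for Blk and Cd79b, and for Pax5 and Fcer2a it was larger than the mean.

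**Figure D1:**
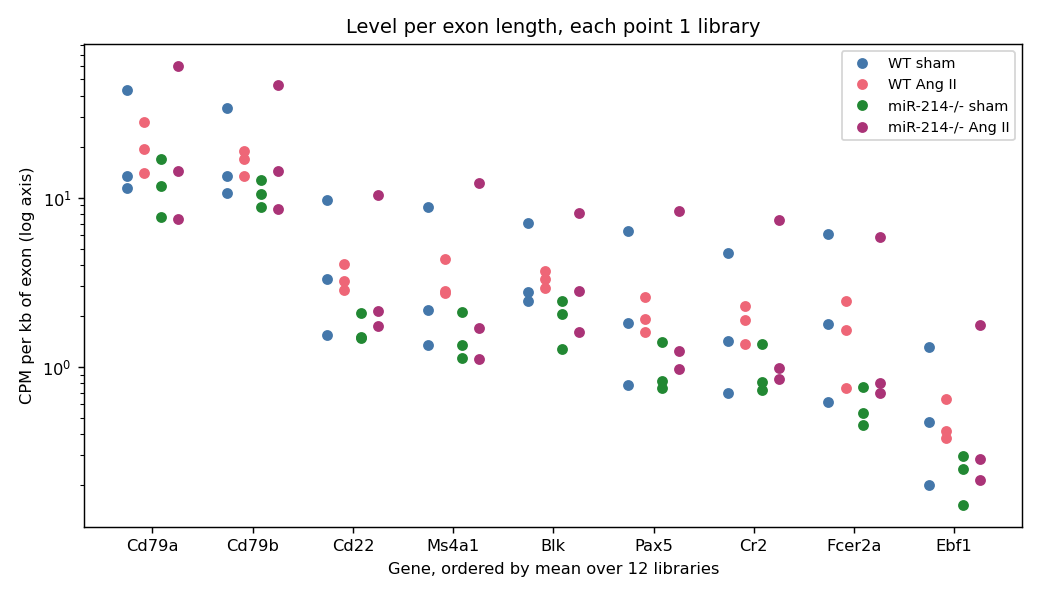
Level of each gene in CPM per kb of exon on a log axis, 1 point per library, coloured by group (3 libraries each), with genes in order of their mean over 12 libraries. Cd79a and Cd79b lie highest and Ebf1 lowest, and 1 WT sham and 1 miR-214-/- Ang II library lie above the other points of every gene.

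A pair of libraries stood apart in all 9 genes, and they belonged to different groups. WT sham replicate 1 and miR-214-/- Ang II replicate 2 were the 2 highest libraries for 9 of the 9 genes. The miR-214-/- Ang II library was the highest for 8 genes, and the WT sham library for Fcer2a. Of all 16770 genes tested over the 4 groups, 309 (1.84%) were higher in both of these libraries than in each of the other 10. Their choice rests on the measured levels of the B cell genes, so the count of 9 is a description.

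Cd79a, the first signalling chain of the receptor (chromosome 7, 24897381 to 24902197, plus strand), was at 62.9, 16.6 and 19.5 CPM in WT sham and at 20.3, 40.7 and 28.5 CPM in WT Ang II. It was at 11.3, 24.6 and 17.1 CPM in miR-214-/- sham and at 21.03, 87.6 and 10.9 CPM in miR-214-/- Ang II. A single library of WT sham and a single library of miR-214-/- Ang II were high, and each group's range overlapped that of the others. Cd79b, its partner (chromosome 11, 106311341 to 106314762, minus strand), reached 48.3 and 66.2 CPM in those libraries and lay between 12.2 and 27.1 CPM in the other 10.

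Pax5, the factor that keeps B cell identity (chromosome 4, 44524757 to 44710487, minus strand), was at 56.0, 6.95 and 16.2 CPM in WT sham and at 17.1, 22.8 and 14.3 CPM in WT Ang II. It was at 6.67, 12.4 and 7.29 CPM in miR-214-/- sham and at 11.03, 73.4 and 8.62 CPM in miR-214-/- Ang II. The 3 WT Ang II libraries lay close together, while the highest WT sham library was 8.06 times the lowest. Ebf1, which acts before Pax5 in the lineage (chromosome 11, 44617317 to 45008091, plus strand), was at 12.9 and 17.3 CPM in the 2 high libraries and between 1.49 and 6.26 CPM in the other 10.

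Ms4a1, which encodes CD20 (chromosome 19, 11249675 to 11266241, minus strand), was at 54.2, 8.38 and 13.4 CPM in WT sham and at 16.9, 26.7 and 17.3 CPM in WT Ang II. It was at 6.96, 12.97 and 8.33 CPM in miR-214-/- sham and at 10.6, 75.6 and 6.92 CPM in miR-214-/- Ang II. Its high miR-214-/- Ang II library was 10.9 times the lowest of the same group. Cd22, an inhibitory receptor of B cells (chromosome 7, 30865402 to 30880342, minus strand), was at 49.0 and 52.5 CPM in the 2 high libraries and between 7.50 and 20.3 CPM in the others.

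Fcer2a, the low-affinity IgE receptor of follicular B cells (chromosome 8, 3681737 to 3694175, minus strand), was at 18.9, 1.91 and 5.55 CPM in WT sham and at 5.07, 7.58 and 2.31 CPM in WT Ang II. It was at 1.66, 2.36 and 1.40 CPM in miR-214-/- sham and at 2.49, 18.2 and 2.18 CPM in miR-214-/- Ang II. The 2 high libraries were 8.10 and 7.80 times the median of the other 10, the widest gap among the 9 genes. Cr2, the complement receptor that is highest on marginal zone and follicular cells (chromosome 1, 195136811 to 195176716, minus strand), was at 38.1 and 59.7 CPM in those libraries and between 5.68 and 18.5 CPM in the others.

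Blk (chromosome 14, 63372836 to 63417037, minus strand) was at 19.0, 7.47 and 6.59 CPM in WT sham and at 8.96, 9.91 and 7.95 CPM in WT Ang II. It was at 3.44, 6.58 and 5.56 CPM in miR-214-/- sham and at 7.63, 21.9 and 4.35 CPM in miR-214-/- Ang II. The gap was smallest here and in Cd79b: the high libraries were 2.71 and 3.11 times the median of the other 10 for Blk, and 2.58 and 3.54 times for Cd79b.

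**Figure D2:**
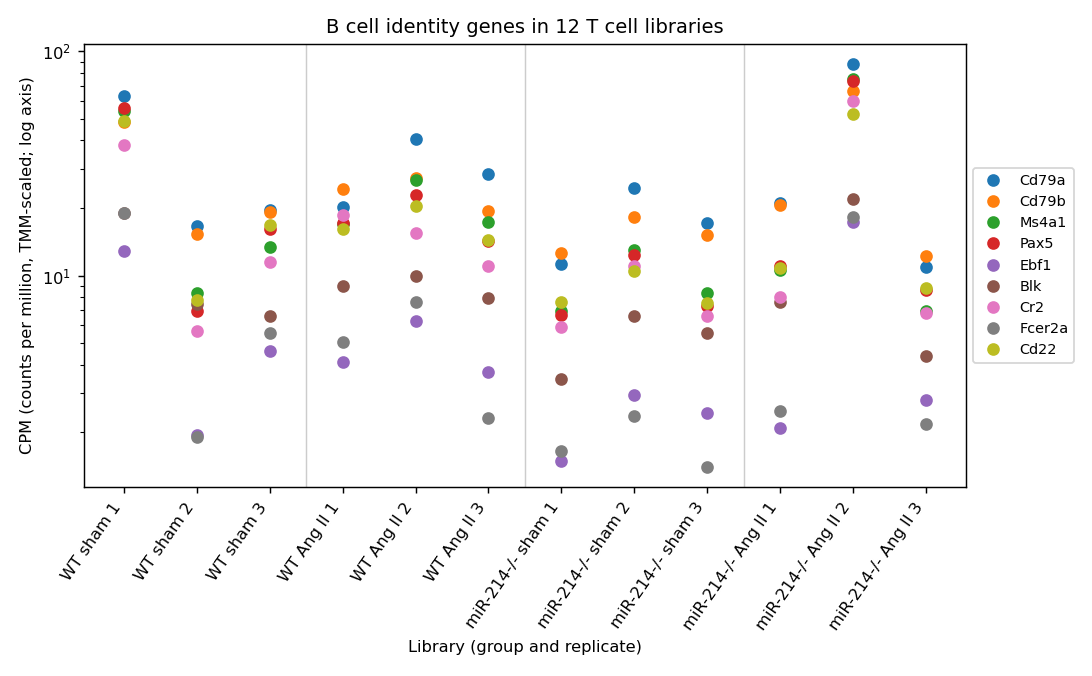
Level of the 9 B cell genes in CPM on a log axis in each of the 12 libraries, named by group and replicate, with 1 colour per gene. All 9 genes are highest in WT sham 1 and miR-214-/- Ang II 2, with Cd79a at 62.9 and 87.6 CPM there and at 10.9 to 40.7 CPM elsewhere.

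Ang II against sham in WT mice asks how the infusion changed the T cell preparation when miR-214 was present. A gene counted as called when edgeR's quasi-likelihood test gave it an adjusted p under 0.05 together with a log2 fold change beyond 1 in size. None of the 9 B cell genes met this, while 7.30% of the 16012 genes tested were called. The count of the 9 with an unadjusted p under 0.05 was 0, and DESeq2 called 0. The log2 fold changes ran from −0.81 ± 0.79 (SE) for Fcer2a (adjusted p = 0.499) to −0.15 ± 0.52 for Cd79a (adjusted p = 0.864), with a median of −0.32 beside −0.02 over all genes tested. Without WT sham replicate 1 the sign turned for all 9, with values from 0.36 to 0.91 and adjusted p from 0.109 to 0.684. The 2 groups overlapped for 9 of the 9 genes.

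Counts for other B cell lists in WT mice stand beside the same 7.30% of all genes called. In this comparison 0 of 7 plasma cell genes and 0 of 5 marginal zone genes were called. The values of all 7 plasma cell genes were positive, up to 1.90 ± 0.86 for Jchain (adjusted p = 0.160). Xbp1, at 0.90 ± 0.25, had an adjusted p of 0.0466 but not the minimum fold. Values of the marginal zone genes went both ways, and Dtx1, at −0.69 ± 0.14 (adjusted p = 0.0181), also lacked the minimum fold. The mean level of Dtx1 was 296 CPM, beside 30.1 CPM for Cd79a, so Dtx1 cannot be assigned to B cells. Of 16 genes of B cell receptor signalling, 3 were called as higher and 0 as lower. Btk, a kinase also used by myeloid cells, rose by 1.57 ± 0.24 on the log2 scale (adjusted p = 0.00836). Plcg2 rose by 1.10 ± 0.30 (adjusted p = 0.0437) and Cd81 by 1.07 ± 0.21 (adjusted p = 0.0181). Of 12 transcription factors, 2 were called as higher and 0 as lower. Spi1, which encodes the myeloid and B cell factor PU.1, rose by 1.59 ± 0.36 (adjusted p = 0.0273), and Bcl11a by 1.51 ± 0.26 (adjusted p = 0.0115). Bach2 (−0.62), Foxo1 (−0.48) and Ikzf3 (−0.37) had an adjusted p under 0.05 but not the minimum fold. The values of all 12 T cell genes were negative too, from −0.62 for Cd8b1 to −0.35 for Trac, and lacked the minimum fold. Summed over these T cell genes, the level was 3600 to 4363 CPM in WT Ang II and 5185 to 6228 CPM in WT sham. The part of T cells in the values of the 3 factors was not tested. Of 12 surface genes 1 was called, Cd24a, which rose by 3.33 ± 0.24 (adjusted p = 0.000953), and red-cell precursors also carry its product. The medians of the signalling, factor and surface lists were 0.47, 0.43 and −0.13.

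Cd93, which early B cells and myeloid cells share, was called among 5 tested precursor genes, at 1.98 ± 0.35 (adjusted p = 0.0131). Gcsam was called among 3 tested germinal centre genes, at 1.75 ± 0.46 (adjusted p = 0.0393). In the same comparison all 5 neutrophil genes, all 5 cell cycle genes, all 3 basophil and mast cell genes and 3 of 6 red-cell precursor genes were called as higher. The other red-cell genes, Hba-a1, Alas2 and Hbb-bs, had values of 2.65, 2.57 and 2.49 but were not called (adjusted p = 0.0504, 0.0551 and 0.0701). The part of these cells in the B lineage lists was not tested.

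Ang II against sham in miR-214-/- mice asks the same without miR-214. The fitted values were positive for all 9 genes, and 0 of 9 were called. Over all 15937 genes tested 0% were called (1939 had an unadjusted p under 0.05, and DESeq2 called 51). Fcer2a had the largest value, 2.08 ± 0.84 (adjusted p = 0.399), and Cd79b the smallest, 1.11 ± 0.57 (adjusted p = 0.472). Their median was 1.66, beside 0.03 over all genes tested, and 1 of the 9, Fcer2a, had an unadjusted p under 0.05.

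The size of these values rested on miR-214-/- Ang II replicate 2. Without it the 9 values lay between −0.15 and 0.37, their median was 0.10, and 6 of 9 were positive. For Pax5 the fitted value went from 1.82 ± 0.82 to 0.16 ± 0.31, and for Ms4a1 from 1.72 ± 0.87 to −0.11 ± 0.33. In the other 2 libraries of that group Pax5, at 11.03 and 8.62 CPM, lay within the sham range of 6.67 to 12.4 CPM. That high library also held 1332 CPM of Hba-a1 and 565 CPM of S100a8, genes of red cells and neutrophils, beside at most 155 and 106 CPM in the other 2 libraries of its group. The part of those cells was not tested. WT sham replicate 1, the other high library, had 149 CPM of Hba-a1 and 32.0 CPM of S100a8. It was the highest of the 12 for Siglech, a gene of plasmacytoid dendritic cells, at 43.2 CPM, while the other 11 reached at most 34.9 CPM and miR-214-/- Ang II replicate 2 was at 18.3 CPM. Summed over 5 dendritic cell genes, the level was 93.8 and 65.1 CPM in the 2 high libraries and 37.9 to 123.5 CPM in the other 10, and the part of dendritic cells was not tested.

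The comparison of miR-214-/- with WT in sham mice asks whether the deletion alone changed the preparation. All 9 values were negative, from −2.31 ± 0.76 for Fcer2a (adjusted p = 0.701) to −0.87 ± 0.42 for Cd79b (adjusted p = 0.781), with a median of −1.45 beside −0.01 over all genes. Again 0 of 9 were called, where 0.0189% of 15913 genes were. Ebf1, Blk, Fcer2a and Cd22 had an unadjusted p under 0.05, 4 of the 9, beside 6.67% of all genes tested, and DESeq2 called 0 of 9. Without WT sham replicate 1 the values lay between −1.05 and −0.04 and their median was −0.40. Blk was the 1 gene of 9 for which the groups did not overlap, by a narrow margin of 6.58 CPM in the highest miR-214-/- library against 6.59 CPM in the lowest WT library, and 10.2% of all genes tested over the 4 groups did not overlap in this comparison.

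Under Ang II the miR-214-/- values were nominally above WT for all 9 genes, and 0 of 9 were called, as 0% of 16215 genes were (1388 with an unadjusted p under 0.05, and 21 called by DESeq2). Pax5 was at 0.79 ± 0.79 (adjusted p = 0.708) and Blk at 0.34 ± 0.55 (adjusted p = 0.819). The 9 had a median of 0.62, and none had an unadjusted p under 0.05. Leaving out miR-214-/- Ang II replicate 2 turned all 9 values negative, to between −1.20 for Ms4a1 and −0.52, with a median of −0.89. In that fit 5 of 9 had an unadjusted p under 0.05, beside 5.07% of all genes tested, and the adjusted p was 0.827 for all 9. The library was singled out for its levels of these genes, so the counts without it are a description.

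**Figure D3:**
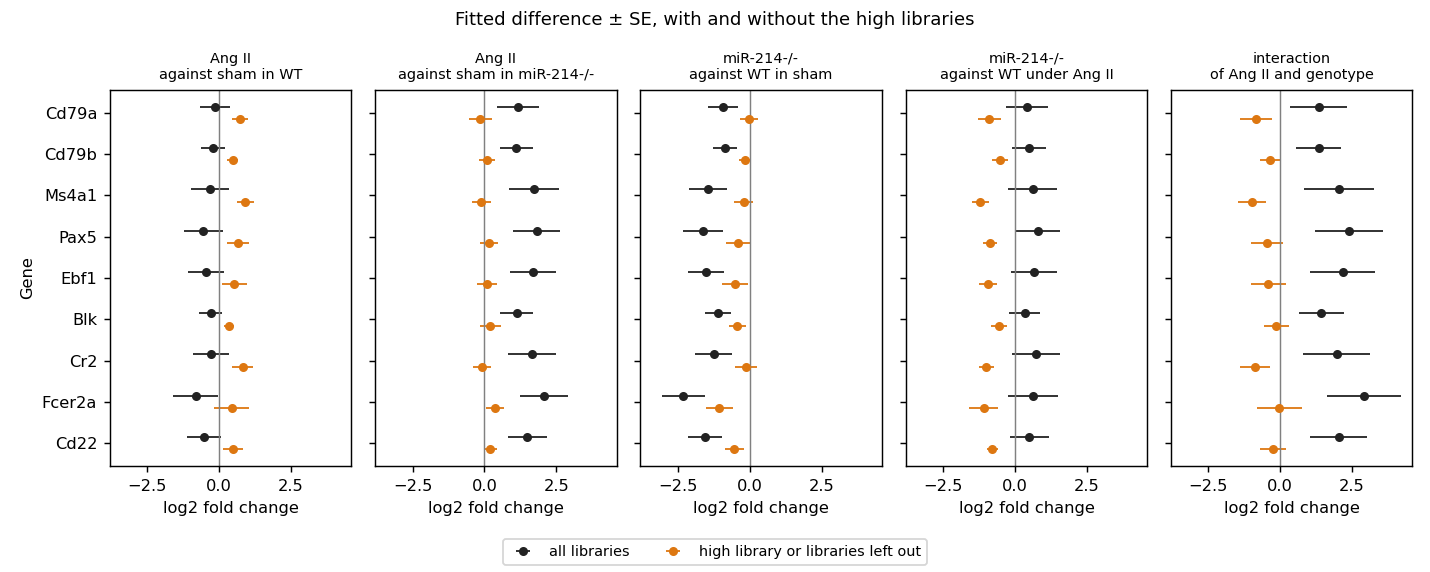
Fitted log2 fold change of each gene with its SE in 5 panels, the 4 comparisons of 3 against 3 libraries and the interaction, with all libraries (black) and with the high library or libraries left out (orange). With the high libraries left out the 9 values change sign in 3 panels: Ang II against sham in WT, miR-214-/- against WT under Ang II, and the interaction. They move towards 0 in the panel of miR-214-/- against WT in sham. In the panel of Ang II against sham in miR-214-/- they move to between −0.15 and 0.37, and 3 of the 9 change sign.

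The interaction asks whether the response to Ang II differed between the genotypes. It was positive for all 9 genes, with Fcer2a at 2.91 ± 1.29 (adjusted p = 0.329), Pax5 at 2.38 ± 1.18 (adjusted p = 0.369) and Cd79a at 1.33 ± 1.0 (adjusted p = 0.533). Called were 0 of 9, beside 0.00596% of 16770 genes. The 95% interval of the interaction for Cd79a ran from −0.86 to 3.53 on the log2 scale, and that of Fcer2a from 0.07 to 5.74, so that large differences in either direction were not resolved for Cd79a. Fcer2a alone of the 9 had an unadjusted p under 0.05, and DESeq2 called 0. With both high libraries left out, an alternative added after the data were seen, all 9 values were negative, from −0.999 for Ms4a1 to −0.04 for Fcer2a, with a median of −0.41.

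Over both genotypes, the infusion gave positive values for the 9 genes, from 0.39 ± 0.44 for Blk (adjusted p = 0.566) to 0.68 ± 0.69 for Ms4a1 (adjusted p = 0.521), and 0 of 9 were called where 15.9% of 16770 genes were. None had an unadjusted p under 0.05, and DESeq2 called 0. Leaving out miR-214-/- Ang II replicate 2 made all 9 negative (median −0.21), and leaving out both high libraries gave a median of 0.33. Genotype over both treatments gave negative values for all 9, with a median of −0.40 and 0 of 9 called, as 0% of 16770 genes were (309 with an unadjusted p under 0.05, and 1 called by DESeq2). Without WT sham replicate 1 the median was 0.19, and without miR-214-/- Ang II replicate 2 it was −1.20, when all 9 had an unadjusted p under 0.05, beside 1.95% of all genes tested in that fit, and an adjusted p of 1. With both left out the median was −0.64 and 6 of 9 had an unadjusted p under 0.05, beside 2.69% of all genes tested in that fit. These counts too are a description, since the libraries were chosen by the levels of the 9 genes.

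In the additive fit over both genotypes the factors Bach2 and Ikzf3, which T cells also use, fell by 0.46 and 0.30 on the log2 scale (adjusted p = 0.0176 and 0.0282). The T cell genes Cd3e (−0.33), Lat (−0.29) and Zap70 (−0.26) were called in this fit as well (adjusted p = 0.0222, 0.0415 and 0.0432). Spi1 rose by 1.13 ± 0.28 and Btk by 1.08 ± 0.23 (adjusted p = 0.0211 and 0.0138). Also called were Cd93 (1.26), Bcl11a (0.93), Plcg2 (0.89) and Cd1d1 (−0.30). Rag1, used by precursors of both lymphocyte lineages, rose by 2.20 ± 0.64 (adjusted p = 0.0385). Its level was near the floor, with a mean of 0.604 CPM and a range from 0 to 2.41 CPM over the libraries. In WT mice alone its adjusted p was 0.188.

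The 9 genes varied far more between libraries of a group than most genes did. The biological coefficient of variation, which is edgeR's estimate of the spread between replicates relative to the level, was 0.468 for Blk, 0.471 for Cd79b, 0.581 for Cd79a, 0.687 for Ms4a1 and 0.725 for Fcer2a. Its median was 0.173 over all genes tested and 0.123 over the 12 T cell genes, the highest of which was 0.223. Between 93.4% (Blk) and 97.9% (Fcer2a) of the genes tested had a smaller value than a B cell gene.

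The genes moved together from library to library. Each of the 9 correlated with the mean of the other 8 at a Pearson r between 0.942 (Blk) and 0.995 (Pax5) over the 12 libraries in log2 CPM, and between 0.795 (Blk) and 0.978 (Pax5) over the 10 libraries without the 2 high ones. These are descriptions over libraries that share 4 groups. The counts of Ms4a1 and Pax5 kept a ratio between 0.803 and 1.22 in all 12 libraries, and those of Cd22 and Pax5 one between 0.715 and 1.14, while the sum of the 9 varied by 8.21 times. Blk departed most, at 0.298 to 1.07 of Pax5, and its share of the summed CPM was 4.63% and 5.30% in the high libraries and 5.60% to 10.4% in the others.

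Of the 12 genes outside the 9 whose pattern was most like theirs, 7 were in one of the B cell lists and 5 (Chst3, Trim7, Ffar1, Pxdc1 and Scn4a) were in none. By Pearson r over 12 libraries with the mean log2 CPM of the 9, the closest 12 included Ighd, which encodes the heavy chain of IgD (r = 0.982), H2-DMb2 (0.981), Tnfrsf13c, the receptor for the survival factor BAFF (0.981), Chst3 (0.975), Fcrla (0.965), Trim7 (0.965), Ffar1 (0.961), Fcmr, the receptor for IgM (0.959), Pxdc1 (0.954), Siglecg (0.950) and Scn4a (0.942). Of these 12, 9 were also among the closest 12 when each group was centred on its own mean, where Gm5106, Kynu and Cd40 took the other places. Over the 10 libraries without the high ones r was 0.929 for Ighd and 0.036 for Gm5106.

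The antigen-presenting MHC class II genes shared the high libraries to a lesser degree. Cd74, the invariant chain, was at 554 CPM in WT sham replicate 1 and 597 CPM in miR-214-/- Ang II replicate 2, and between 182 and 463 CPM elsewhere. The 4 class II genes measured were all highest in these libraries, as were 9 of the 12 other B cell surface genes, 6 of the 16 signalling genes, 2 of the 12 transcription factors and 0 of the 12 T cell genes.

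Plasma cell genes and the gene of the IgM heavy chain followed a different order of libraries. Jchain, which links IgM and IgA chains, was at 175, 632 and 62.4 CPM in WT sham and at 376, 1297 and 1556 CPM in WT Ang II. It was at 106, 754 and 751 CPM in miR-214-/- sham and at 1003, 212 and 110 CPM in miR-214-/- Ang II. The 2 libraries with most B cell RNA lay below the Jchain median of the other 10 (692 CPM), but each was the middle library of its group. None of the 7 plasma cell genes was highest in both of them. Summed over the 7, the plasma cell list was at 282 and 335 CPM there. In the other 10 its median was 855 CPM and its range 143 to 1861 CPM. The 7 genes correlated with the mean of the B cell genes at r between −0.263 and 0.137 over 12 libraries. Over the other 10, r was between 0.253 and 0.441.

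IgM and IgD, which a naive B cell carries side by side, parted in the same way. Ighd stayed at 0.995 to 1.51 times Pax5 in all 12 libraries. Ighm was 8.42 times Ighd in WT sham replicate 1 and 10.5 times in miR-214-/- Ang II replicate 2, and between 15.9 and 264 times in the others.

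**Figure D4:**
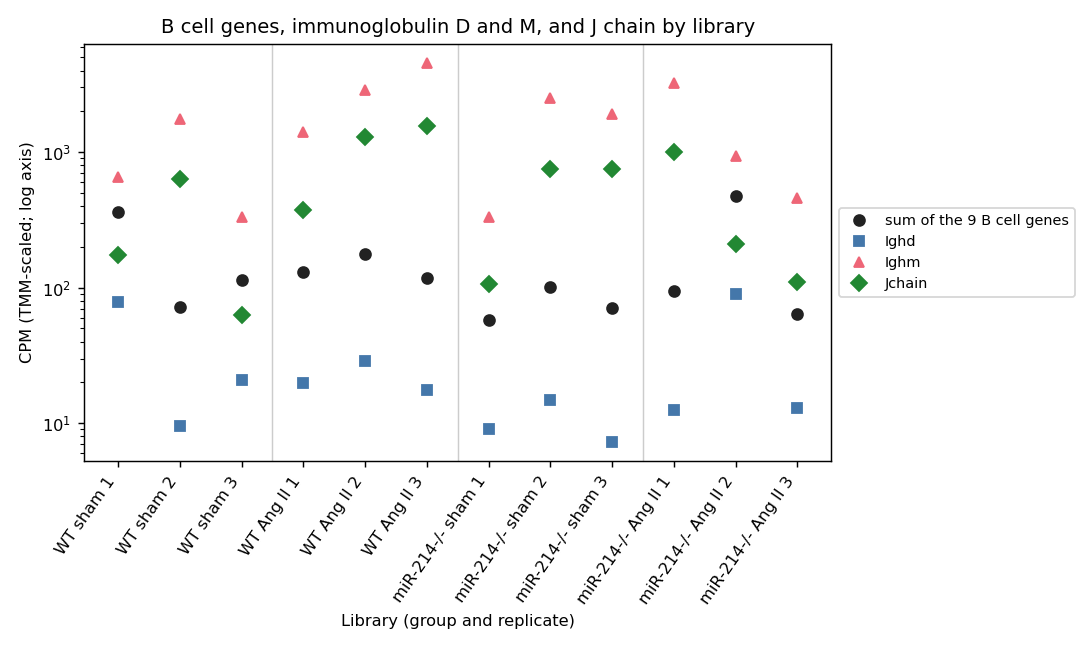
Summed CPM of the 9 B cell genes (black circles), Ighd (blue squares), Ighm (red triangles) and Jchain (green diamonds) in each of the 12 libraries, named by group and replicate, on a log axis. Ighd runs parallel to the B cell sum, which peaks at 359 CPM in WT sham 1 and 472 CPM in miR-214-/- Ang II 2, while Jchain is at 175 and 212 CPM there and reaches 1556 CPM in WT Ang II 3.

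The ratio of Pax5 to Cd79a counts was between 0.418 and 0.561 in the 6 libraries with most Jchain (632 to 1556 CPM), and between 0.592 and 0.891 in the 6 with least (62.4 to 376 CPM), with no overlap. The order was noticed in these values and has no test. Plasma cells retain some Cd79a when Pax5 is off, as background, and the part of such cells in the ratio was not tested.

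Genes of B cell precursors and of germinal centres were low. The summed CPM of 7 precursor genes was between 12.5 and 65.4 CPM, and Cd93 and Dntt, which other cells also use, had the highest mean CPM per kb of the list. The 4 germinal centre genes summed to 16.7 to 25.4 CPM. Of the follicular markers Ccr7, which is high in naive T cells, reached 540 CPM in its highest library and cannot be assigned to B cells. Among the 5 marginal zone genes, 0 were highest in both B cell rich libraries. The mean levels of Dtx1 (296 CPM), Cd9 (48.2 CPM), Cd1d1 (47.7 CPM) and Plxnd1 (28.8 CPM) were above that of Pax5 (21.1 CPM). Their r with the mean of the 9 genes was between −0.153 and 0.204 over 12 libraries. They cannot be assigned to B cells, so this count says little about marginal zone cells. S1pr3, at 1.95 CPM, had an r of 0.662.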

How the data were processed

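RNASeq counts of splenic T cells were analysed in 12 libraries, 3 in each of 4 groups taken from the sample labels. The authors trimmed reads with Trimmomatic, mapped them to GRCm38 with STAR and counted unique exonic read pairs per gene with featureCounts of Subread 1.5.2, and the deposited values are these raw counts, with no normalization. The strand setting and the annotation release were not given in the sources used here, so overlapping and antisense genes are uncertain. No column was left out. Of the table's 49315 identifiers 49056 matched the GENCODE annotation of GRCm38, which gave symbols, positions and the exon lengths for CPM per kb.

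Counts were fitted in R 4.3.3 with edgeR 4.0.16 (filterByExpr, TMM scaling, the quasi-likelihood test at its defaults) over all genes kept, with Benjamini-Hochberg adjustment. The 4 comparisons of 3 against 3 used separate fits and called genes with an adjusted p under 0.05 whose log2 fold change was beyond 1 in size. The interaction and the 2 additive fits used all 12 libraries and an adjusted p under 0.05. CPM and log2 CPM (prior count 2) came from TMM scaling over all libraries. The alternative tool was DESeq2 1.42.0 with its Wald test, and summaries used Python 3.11.15. On simulated counts for 16770 genes with 200 changed, edgeR recovered 195 with 5 false calls in 3 against 3 and 168 with 10 false calls for an interaction. The B cell genes had a biological coefficient of variation from 0.468 (Blk) to 0.725 (Fcer2a), beside a median of 0.173 over all genes tested. Recovery was not counted separately for genes with so wide a spread. The simulated counts therefore do not show how often a change in the B cell genes would be called. Other alternatives were RLE and library size scaling, no filter, 10 counts in every library, the adjusted-deviance fit, the adjusted p alone, the replicate number as a block, and each library left out in turn. Leaving out both high libraries was added after the data were seen.

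The members and the gene lists were chosen with earlier results of these data known. Named were the 9 genes, the 3 genes of each list with the highest mean CPM per kb or those called (up to 3 per comparison), the 12 genes closest in pattern, and genes of IgM, IgD and MHC class II. Some genes that this rule names are not reported here. Per the methods of the study, each library is a biological replicate from its own mouse. Promoter windows were read from a RefSeq table of GRCm38.p6.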

Additional observations from a re-analysis of the deposited data

How the results depend on the processing

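No B cell gene was called in any of the 7 comparisons under any of the alternatives run, 116 counts in all. Under the settings that kept all libraries and had no replicate block, every one of the 9 log2 fold changes kept its sign in all 7 comparisons. Direction depended on 1 or 2 libraries: 38 of 540 values with a library left out changed sign, of which 9 of 9 in Ang II against sham in WT without WT sham replicate 1, 9 of 9 in miR-214-/- against WT under Ang II and in Ang II over both genotypes without miR-214-/- Ang II replicate 2, and 7 of 9 in genotype over both treatments without WT sham replicate 1. For Ang II against sham in WT the log2 fold changes ranged as follows over the libraries left out in turn: Cd79a −0.47 to 0.73, Cd79b −0.51 to 0.47, Ms4a1 −0.74 to 0.91, Pax5 −1.00023 to 0.65, Ebf1 −0.90 to 0.53, Blk −0.57 to 0.36, Cr2 −0.72 to 0.82, Fcer2a −1.29 to 0.43, Cd22 −0.95 to 0.48. For Ang II against sham in miR-214-/- they were Cd79a −0.15 to 1.61, Ms4a1 −0.11 to 2.19, Cr2 −0.0780 to 2.10. For miR-214-/- against WT under Ang II they were Cd79a −0.89 to 0.87, Cd79b −0.52 to 0.88, Ms4a1 −1.20 to 1.09, Pax5 −0.87 to 1.23, Ebf1 −0.93 to 1.11, Blk −0.57 to 0.73, Cr2 −1.01 to 1.18, Fcer2a −1.08 to 1.06, Cd22 −0.78 to 0.90. For Ang II over both genotypes they were Cd79a −0.16 to 0.96, Cd79b −0.0870 to 0.81, Ms4a1 −0.23 to 1.35, Pax5 −0.24 to 1.28, Ebf1 −0.23 to 1.16, Blk −0.0846 to 0.77, Cr2 −0.21 to 1.28, Fcer2a −0.32 to 1.31, Cd22 −0.21 to 1.03. For genotype over both treatments they were Cd79a −0.91 to 0.22, Cd79b −0.71 to 0.19, Ms4a1 −1.34 to 0.25, Pax5 −1.27 to 0.25, Ebf1 −1.26 to 0.14, Cr2 −1.14 to 0.34, Cd22 −1.20 to 0.0396. With both high libraries left out, an alternative chosen after seeing the data, the interaction was Cd79a −0.86, Cd79b −0.35, Ms4a1 −0.99928, Pax5 −0.47, Ebf1 −0.41, Blk −0.13, Cr2 −0.88, Fcer2a −0.0399, Cd22 −0.26.

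Replicate numbers did not pair the libraries: the deviations of same-numbered libraries from their group means correlated between −0.56 and 0.34. With the number as a replicate block 0 of the 9 genes were called in all 7 comparisons, and over all genes the calls fell from 1169 to 966 in WT and from 2662 to 1799 for Ang II over both genotypes. In that fit the sign changed for Cd79a 0.10, Ms4a1 0.14, Cr2 0.0983 in WT, and for Cd79a −0.0530, Ms4a1 −0.18, Cr2 −0.0263 between the Ang II groups. Over all genes DESeq2 called 51 against 0 for Ang II in miR-214-/-, 45 against 3 between the sham groups, 21 against 0 between the Ang II groups and 444 against 1 for the interaction. The 9 genes had 36 to 2410 counts per library, and 3 libraries per group limit what a comparison can resolve when 1 of them stands apart.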
